A study of Rattus norvegicus with 9 samples.

Results

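The genes of one signalling loop, Stat3 (ENSRNOG00000019742) and Socs3 (ENSRNOG00000002946), were followed in rat hypothalamus after damage to the pituitary stalk. They are 2 of the 34784 rows of the deposited count table and were chosen by these Ensembl IDs. Both had enough counts to be tested, among 17345 genes in all. The symbols are those given with the 2 IDs. No table used here pairs Ensembl IDs with symbols, so this naming was not checked.

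STAT3 is a latent transcription factor. Cytokines such as interleukin-6, leukaemia inhibitory factor and ciliary neurotrophic factor bind receptors that share the gp130 chain, Janus kinases attached to the receptor phosphorylate STAT3, and the phosphorylated protein moves to the nucleus and switches on its target genes. Socs3 is one of these targets, and its protein binds the receptor and the kinases and shuts the signal down, so the loop limits itself. Stat3 is also a target of its own protein. In injured nervous tissue the pathway is known for its part in astrocyte reactivity and in the response of neurons to axon damage, and in the hypothalamus SOCS3 is known as a brake on leptin signalling. Transcript counts do not measure phosphorylation, the step that activates STAT3.

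The tissue was hypothalamus of S-D strain rats that held the supraoptic and the paraventricular nucleus, where magnocellular neurons produce the hormones vasopressin and oxytocin. There were 3 groups of 3 libraries: Control, 1 d after PEL surgery and 7 d after PEL surgery. PEL is not spelled out in the labels; in the published study it is an electrical lesion of the pituitary stalk, made as a model of central diabetes insipidus. The labels give no age or sex of the rats, do not say whether Control animals had sham surgery, and do not tie libraries to individual rats. The p-values therefore reflect only how far these libraries vary, which may be technical in part. The libraries held 13338433 to 21012998 counts each, and those of 1 d were all shallower than those of Control. Within a group the libraries differed by more than sampling noise, with a chi-square statistic per degree of freedom of 6.80 to 38.1 over the 9 pairs. In bulk tissue more RNA per cell and more cells of a type that expresses a gene cannot be told apart. Markers of astrocytes, microglia, infiltrating blood cells and neurons, and the labelled tissue itself, could not be checked for want of symbols, so the part of cell composition in the changes below was not tested.

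The promoter of Stat3 is shown because the 2 genes rose together and Stat3 is a known target of its own protein. The bases just before the outermost start of the gene in RefSeq (GRCr8, chr10:86363514-86363609, minus strand, read 5′ to 3′) were as follows.
Stat3: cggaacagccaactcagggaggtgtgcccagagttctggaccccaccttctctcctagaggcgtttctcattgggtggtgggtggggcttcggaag
The palindrome TTCNNNGAA, the core of the sites that STAT3 binds, reads the same on both strands. It was absent from this stretch (hence no capitals) and from the whole window of 300 bases around the RefSeq start site of Stat3. That start site lies 154 bases inside the annotated gene, so part of the window is gene sequence. Sites elsewhere were not searched for, so whether STAT3 acts on Stat3 here was not tested. The palindrome was found in 8.87% of the 33469 RefSeq windows of that length, and its stricter form TTCCNGGAA, which is contained in it, in 1.27%. The window that RefSeq's table gives for Socs3 also held neither. That window surrounds a start site 1207 bases inside the annotated gene and lies wholly within the gene, so it does not show the bases before the gene's outermost start and is not printed.

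The first comparison asked how the loop stood 1 d after the lesion. Both genes rose: Stat3 1.97-fold and Socs3 5.70-fold. Stat3, the transcription factor, stood at 74.1, 69.3 and 84.5 CPM (computed on TMM-scaled library sizes) in Control replicates 1, 2 and 3, and at 162, 151 and 136 CPM in 1 d replicates 1, 2 and 3. Every 1 d library was thus well above every Control library, and within each group the highest library was only 1.19 to 1.22 times the lowest. The means were 75.9 ± 7.81 CPM in Control and 150 ± 13.1 CPM at 1 d (SD, n = 3 each). The log2 fold change was 0.98 (SE 0.096, 95% interval 0.77 to 1.19, adjusted p = 0.00122 by the edgeR quasi-likelihood test over all genes).

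Socs3, the feedback inhibitor, stood at 0.577, 1.07 and 1.18 CPM in Control replicates 1, 2 and 3, from 11, 20 and 25 counts. At 1 d it stood at 8.12, 4.35 and 3.75 CPM in replicates 1, 2 and 3, from 145, 69 and 53 counts. The groups did not overlap, but they were loose: 1 d replicate 1 was 2.17 times replicate 3, and Control replicate 3 was 2.05 times replicate 1. The means were 0.943 ± 0.322 CPM in Control and 5.41 ± 2.37 CPM at 1 d (SD, n = 3 each). The log2 fold change was 2.51 (SE 0.364, 95% interval 1.70 to 3.32, edgeR adjusted p = 0.00391). Without 1 d replicate 1, the library with the highest Socs3, the log2 fold change was 2.09 (adjusted p = 0.0172).

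**Figure D1:**
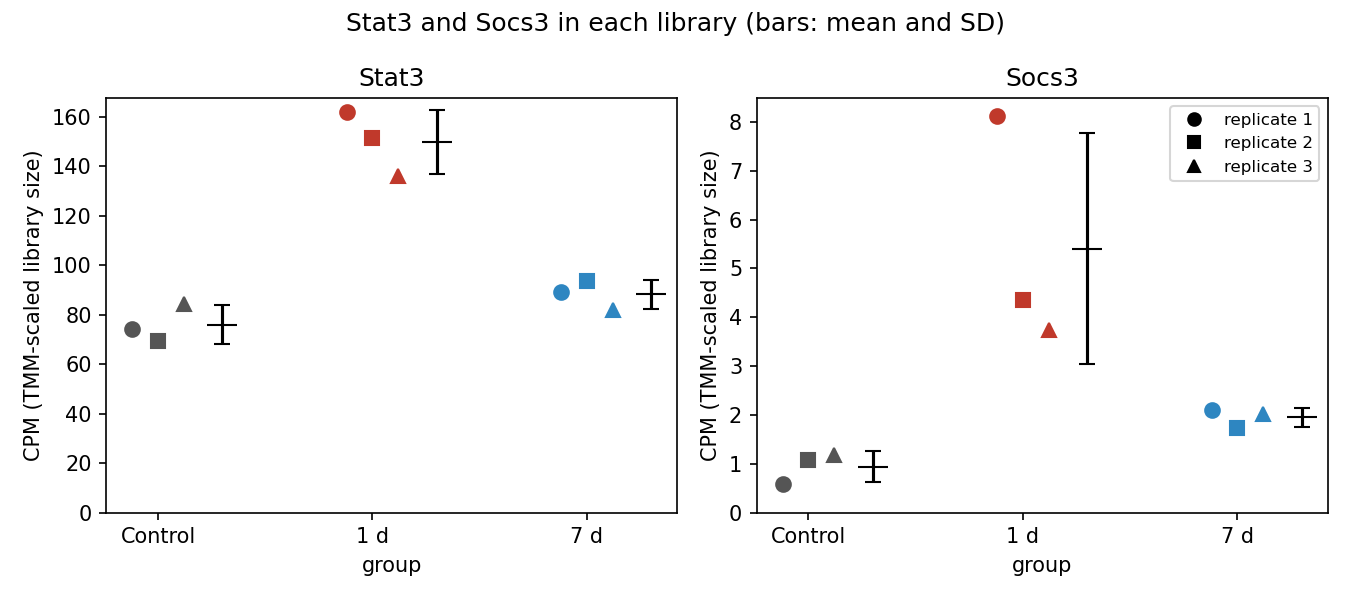
CPM of Stat3 (left) and Socs3 (right) in each of the 9 libraries by group; marker shapes give the replicate number, and the bars beside them the mean and SD (n = 3). Both genes are highest in the 3 libraries of 1 d, from 136 to 162 CPM for Stat3 and from 3.75 to 8.12 CPM for Socs3.

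The separation of 1 d did not rest on scaling. The lowest raw count of Stat3 at 1 d, 1925, was above the highest in the 6 other libraries, 1791, although the 1 d libraries were shallower than those of Control. For Socs3 the lowest raw count at 1 d was 53, against a highest of 38 elsewhere. From summed counts on scaled depth alone, the ratio of 1 d to Control was 1.98 for Stat3 (95% counting interval 1.90 to 2.05) and 5.87 for Socs3 (4.39 to 7.98); these intervals cover counting error only.

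Among all genes, 20.4% were called changed at 1 d and 11.4% were called higher, so a call alone sets neither gene apart. The 3 libraries of 1 d lay above all 3 of Control in 20.2% of genes. By size, 93 of the 17345 genes (0.536%) had a larger log2 fold change at 1 d than Socs3, and 67 of these were called. For Stat3, 1062 genes (6.12%) had a larger one, 724 of them called. The median log2 fold change of all genes called higher was 0.79, and of all tested genes -0.02. By p-value the order was the other way: 11 genes had a smaller unadjusted p than Stat3 and 147 a smaller one than Socs3.

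The 2 genes differ in abundance and in spread. Stat3 had a mean of 105 CPM over the 9 libraries, rank 2068 of the tested genes, and Socs3 2.77 CPM, rank 13708; the median gene had 17.1 CPM. These are levels not divided by transcript length, and they place each gene among the counts only. The biological coefficient of variation fitted for Stat3 was 0.0942, below the common value of 0.189, while that for Socs3 was 0.303. The 4000 genes of rank 1001 to 5000, which include Stat3, held 425 genes higher (10.6%) and 701 lower at 1 d. The 12345 genes below them, which include Socs3, held 1496 higher (12.1%) and 553 lower. Both shares of higher genes were near that of all tested genes, 11.4%. The 1000 most abundant genes held 56 higher (5.6%) and 309 lower.

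**Figure D2:**
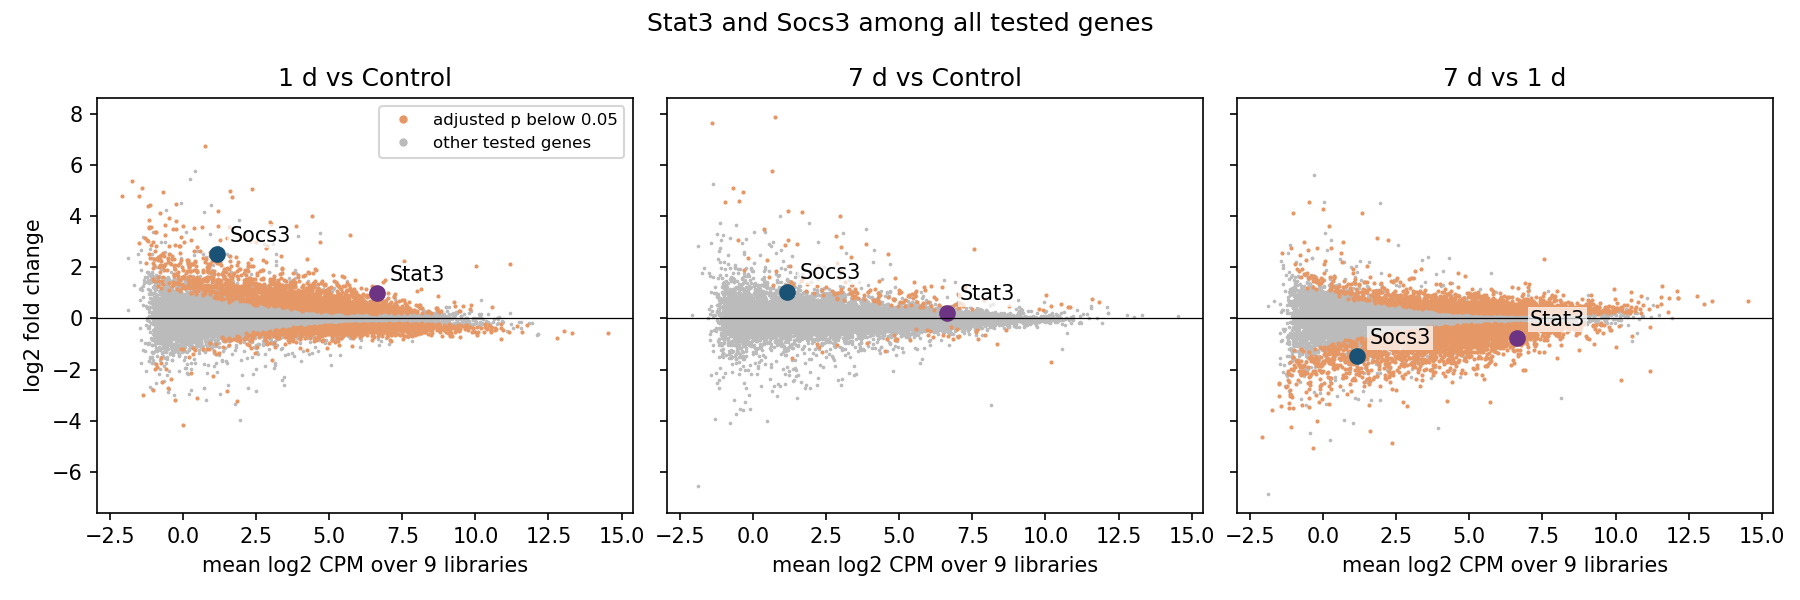
Log2 fold change of every tested gene against its mean log2 CPM over the 9 libraries, for 1 d against Control, 7 d against Control and 7 d against 1 d; orange points had an edgeR adjusted p below 0.05. Socs3 lies near the upper edge of the genes of its abundance at 1 d, at 2.51, and Stat3 at 0.98; at 7 d they lie at 1.04 and 0.22, among genes not called.

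The second comparison asked what was left of the response at 7 d. Neither gene was called changed from Control. Stat3 was at 89.0, 93.7 and 81.8 CPM in 7 d replicates 1, 2 and 3. The 7 d and Control libraries overlapped, since Control replicate 3, at 84.5 CPM, was above 7 d replicate 3. The mean at 7 d was 88.2 ± 6.01 CPM (SD, n = 3), and the log2 fold change of 0.22 (SE 0.095) had a 95% interval of 0.004 to 0.43, unadjusted p = 0.0465 and edgeR adjusted p = 0.394. In linear terms that interval runs up to a 1.34-fold increase. DESeq2 gave an adjusted p of 0.431 and limma-voom 0.418.

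Socs3 was at 2.11, 1.73 and 2.02 CPM in 7 d replicates 1, 2 and 3, from 38, 29 and 36 counts. All 3 values were above the highest Control value, 1.18 CPM, and the 7 d libraries lay close together, at 1.95 ± 0.199 CPM (SD, n = 3). The log2 fold change was 1.04 (SE 0.369, 95% interval 0.22 to 1.86), a 2.06-fold difference with an unadjusted p of 0.0173 and an edgeR adjusted p of 0.264. The adjusted p missed the threshold, while the interval, which is not adjusted for the number of genes, runs from a 1.17-fold to a 3.62-fold increase. DESeq2 gave an adjusted p of 0.229 and limma-voom 0.380. The counting interval of the summed-count ratio, 2.06, was 1.47 to 2.90.

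At 7 d few genes passed: 1.02% were called, 0.842% higher, while in 8.85% of genes all 3 libraries of 7 d lay above all 3 of Control, as for Socs3. A larger log2 fold change than that of Socs3 was found in 326 genes (1.88%), 65 of them called, and a larger one than that of Stat3 in 3134 genes (18.1%). Without Control replicate 1, where Socs3 was lowest, the log2 fold change of Socs3 at 7 d was 0.79 (adjusted p = 0.269).

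The third comparison set 7 d against 1 d. Both genes fell from 1 d to 7 d. Stat3 dropped from 150 ± 13.1 to 88.2 ± 6.01 CPM, with no overlap between the groups, a log2 fold change of -0.77 (SE 0.095, 95% interval -0.98 to -0.55, edgeR adjusted p = 0.000981), which is a 1.70-fold decrease. Socs3 dropped from 5.41 ± 2.37 to 1.95 ± 0.199 CPM, likewise without overlap, a log2 fold change of -1.47 (SE 0.345, 95% interval -2.23 to -0.71, edgeR adjusted p = 0.0107), which is a 2.77-fold decrease. The size of the Socs3 fall leaned on 1 d replicate 1: without that library it was -1.04, with an adjusted p of 0.0498.

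Between the times 29.2% of all genes were called and 15.8% were called lower at 7 d, and in 24.2% of genes all 3 libraries of 7 d lay below all 3 of 1 d. The course that both genes took, higher at 1 d, lower again at 7 d and not called against Control at 7 d, was that of 9.29% of tested genes (1612). These 1612 were most of the 1977 genes called higher at 1 d, so the course is not particular to Stat3 and Socs3. Only 177 genes were called at 7 d in either direction, and 0.369% of tested genes (64) were called higher at both times.

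**Figure D3:**
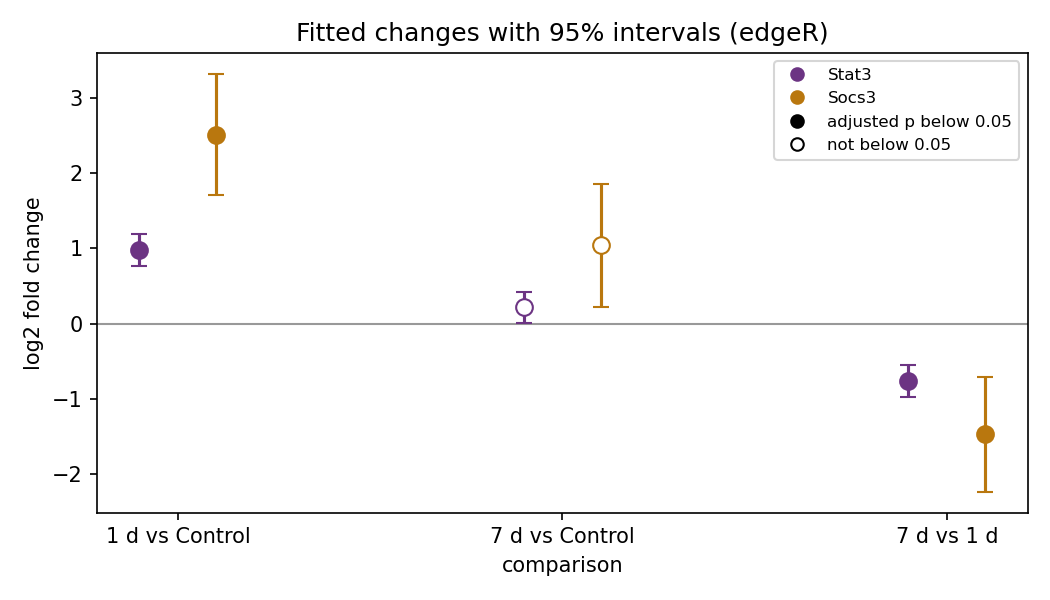
Fitted log2 fold changes of Stat3 and Socs3 in the 3 comparisons, with 95% intervals from the edgeR fit that are not adjusted for the number of genes; filled points had an adjusted p below 0.05. Both genes are above 0 at 1 d and below 0 for 7 d against 1 d, and both 7 d values against Control, 0.22 and 1.04, are open points.

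In each comparison the fitted change was larger for the inhibitor than for the factor. The ratio of their counts restates that difference library by library, from the same counts, and is no separate test of it. The number of Socs3 counts per 100 Stat3 counts, taken within each library so that scaling cancels, compares libraries and not the levels of the 2 genes. It was 0.778, 1.55 and 1.40 in Control replicates 1, 2 and 3, then 5.01, 2.88 and 2.75 at 1 d and 2.37, 1.84 and 2.47 at 7 d. The 3 groups did not overlap: all 1 d values were above all 7 d values, and these above all Control values. How often ratios of other genes separate the groups in this way was not tested. The closest neighbours were 1 d replicate 3 and 7 d replicate 3, at 2.75 and 2.47.

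On the log2 scale the mean ratio was -6.39 ± 0.534 in Control, -4.87 ± 0.481 at 1 d and -5.50 ± 0.228 at 7 d (SD, n = 3 each). It was higher by 1.52 at 1 d than in Control, a factor of 2.87, and higher by 0.89 at 7 d than in Control, a factor of 1.86. From 1 d to 7 d it changed by -0.63. Each of the 3 differences had an exact two-sided permutation p of 0.1 (also 0.1 after Benjamini-Hochberg adjustment over the 3), the smallest that 3 libraries against 3 can give, so none could pass 0.05. Single libraries weighed on it: the difference at 7 d was 0.59 without Control replicate 1, and that between the times was -0.35 without 1 d replicate 1.

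**Figure D4:**
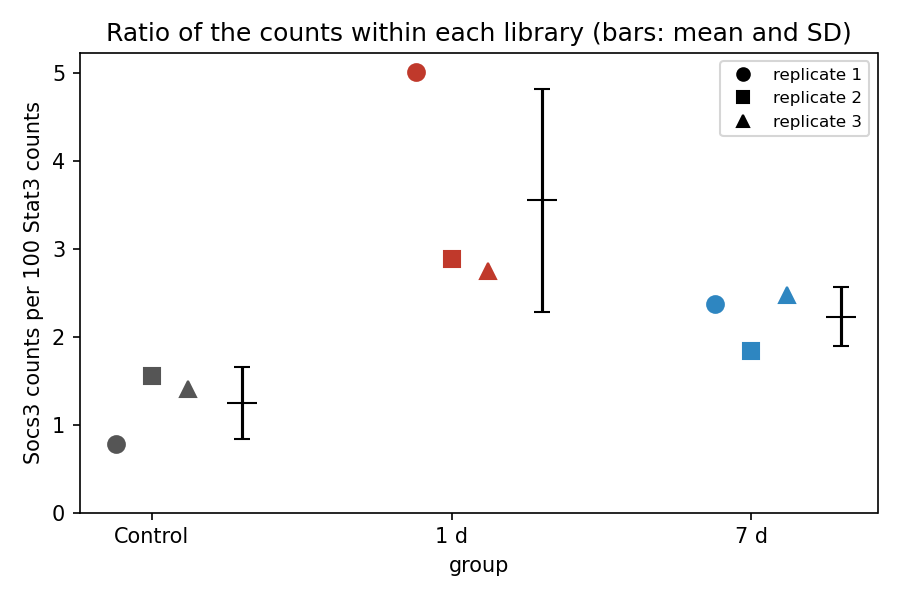
Socs3 counts per 100 Stat3 counts in each library by group, with the mean and SD beside the points (n = 3). The 3 groups do not overlap, with Control at 0.778 to 1.55, 7 d at 1.84 to 2.47 and 1 d at 2.75 to 5.01.

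Within groups the 2 genes did not always rank the libraries alike. At 1 d replicate 1 was highest and replicate 3 lowest in both. In Control replicate 3 was highest in both, but the lowest was replicate 2 for Stat3 and replicate 1 for Socs3. At 7 d replicate 2 was the highest for Stat3 and the lowest for Socs3. The Socs3 ranks rest on few counts: 38, 29 and 36 in 7 d replicates 1, 2 and 3, and 11, 20 and 25 in those of Control. Whether the ranks exceed counting error was not tested.

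Likeness of pattern was measured as the root mean square difference of log2 CPM over the 9 libraries after centring each gene on its own mean. Between Stat3 and Socs3 it was 0.653. Of all 17345 tested genes, 14006 were closer to Stat3 than Socs3 was, and 354 were closer to Socs3 than Stat3 was. The values were not scaled to a common spread, so the measure depends on the size of the changes as well as their course. Socs3 had the larger fitted changes, so the numbers of closer genes do not show whether it followed the course of Stat3. The nearest genes were looked for among those with a mean of at least 5 CPM. The gene nearest to Stat3 was ENSRNOG00000023781, at 0.121 against a median of 0.484 over 12328 genes. Its CPM was 151, 141 and 166 in Control, 258, 256 and 232 at 1 d, and 153, 162 and 152 at 7 d. Its log2 fold change was 0.71 at 1 d (edgeR adjusted p = 0.00220) and 0.03 at 7 d (adjusted p = 0.915).

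The gene nearest to Socs3 was ENSRNOG00000019728, at 0.421 against a median of 1.06. Its CPM was 7.13, 10.4 and 9.72 in Control, 29.2, 26.9 and 28.8 at 1 d, and 13.2, 15.0 and 13.7 at 7 d, so its 3 groups did not overlap either. Its log2 fold change was 1.64 at 1 d (edgeR adjusted p = 0.000938) and 0.62 at 7 d (adjusted p = 0.0767). Of the 5 nearest genes of each member, all 10 were called higher at 1 d, and their edgeR adjusted p at 7 d against Control ranged from 0.0767 to 0.951. They were picked for their likeness over the same libraries, so this is a description.

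All calls of both genes held whichever library was left out. The rise of Stat3 at 1 d then lay between 0.92 and 1.06 on the log2 scale (largest edgeR adjusted p 0.0123), and that of Socs3 between 2.09 and 2.72 (largest adjusted p 0.0210). At 7 d against Control the smallest adjusted p was 0.228 for Stat3 and 0.226 for Socs3.

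**Figure D5:**
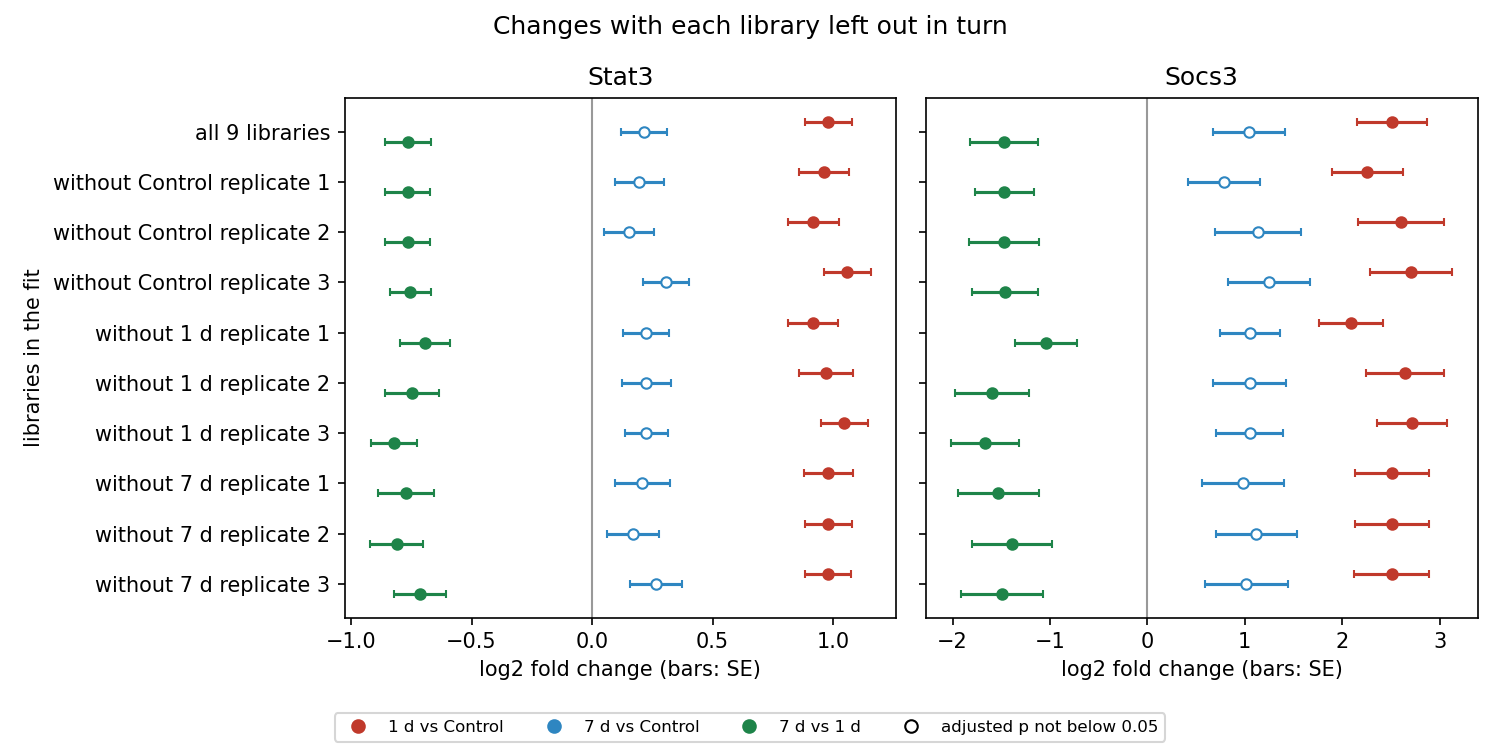
Log2 fold changes of Stat3 (left) and Socs3 (right) with SE, fitted with all 9 libraries and with each left out in turn; open points had an adjusted p of 0.05 or more. The order of the 3 comparisons is the same in each row, and the largest shift is that of Socs3 for 7 d against 1 d, from -1.47 to -1.04, without 1 d replicate 1.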

How the data were processed

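Raw read counts per gene of 9 bulk RNA sequencing libraries were taken from the 1 table the authors deposited; they are whole numbers and not normalized. Per the submitters' processing notes, the tools were featureCounts 1.5.0-p3, HISAT2 2.0.5 and DESeq2 1.16.1; for the build, annotation and strand setting nothing is given in the sources used here. In RefSeq's GRCr8 annotation 0 other genes overlap Stat3 or Socs3. Whether that also holds in the annotation used for counting is not known.

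Groups came from the library titles. Genes were kept by filterByExpr, scaled by TMM and fitted with edgeR (glmQLFit, robust, group as the only term; glmQLFTest) as 1 fit of all 9 libraries, with p-values adjusted over 17345 genes by Benjamini-Hochberg and called below 0.05. Standard errors were derived from the log2 fold change and the F statistic, and intervals from their t distribution. Log2 CPM used a prior count of 2. The edgeR fit was tried on simulated counts with planted changes, and the steps for the count ratio, likeness of pattern and pairing were not. The simulated counts took their spread from the fit to these data, and all genes without a planted change were constant. They are thus no check of that spread or of the calls reported here. The work used edgeR 4.0.16, with DESeq2 1.42.0 and limma 3.58.1 for alternatives, in R 4.3.3.

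The members, the lists and the rules were chosen with earlier results of these data known. The reference gene table (47357 rows) holds 0 Ensembl IDs, so 69 listed genes of the STAT3 pathway and 59 cell type markers matched 0 IDs and were not tested. Genes with the most similar pattern were to be the 5 nearest to each member with a mean of at least 5 CPM and a symbol; the symbol condition was dropped and only the nearest was given by ID.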

Additional observations from a re-analysis of the deposited data

Results flagged for a closer look

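The change from Control differed between the 2 times in both genes, by the direct test of 7 d against 1 d. For Stat3 the change at 7 d minus that at 1 d was -0.765 on the log2 scale (edgeR adjusted p = 0.000981), with all 3 libraries of 7 d below all 3 of 1 d. For Socs3 it was -1.471 (edgeR adjusted p = 0.0107), again with all 3 libraries of 7 d below all 3 of 1 d. Among all tested genes, 29.2% were called between the times. In 24.2% of them all 3 libraries of 7 d lay below all 3 of 1 d, so neither trait is particular to these genes.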

How the results depend on the processing

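All 6 results of Stat3 and Socs3 kept their direction and their side of the threshold in each of 19 alternatives, 2 of which (cyclic loess normalization, and thinning to 13338433 counts) were chosen after seeing the data. Log2 fold changes at 1 d ranged from 0.92 to 1.06 for Stat3 and from 2.09 to 2.72 for Socs3 (largest adjusted p 0.0123 and 0.0210), those at 7 d from 0.15 to 0.31 and from 0.79 to 1.25 (smallest adjusted p 0.228 and 0.226), and those of 7 d against 1 d from -0.85 to -0.69 and from -1.67 to -1.04 (largest adjusted p 0.00705 and 0.0498). The ratio of Socs3 to Stat3 counts kept its direction in all 8 alternatives of each comparison. With 1 library left out its exact permutation p stayed at 0.1 for 1 d against Control. It was 0.1 to 0.2 for 7 d against Control and 0.1 to 0.3 for 7 d against 1 d. The background counts were less stable. With 1 library left out, 1440 to 4595 genes were called at 1 d (3540 with all), 7 to 739 at 7 d (177 with all) and 3071 to 6070 between the times (5069 with all). The lowest came without 1 d replicate 2, Control replicate 2 and 7 d replicate 3, and 739 without Control replicate 1. A fit of only the compared groups called 2066 genes at 1 d and 28 at 7 d, and DESeq2 called 523 at 7 d; the cause was not tested. Scaled by library totals alone, 2471 genes were called higher and 856 lower at 1 d (1977 and 1563 with TMM), and 1456 and 3294 between the times (2320 and 2749).

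Replicate numbers did not pair the libraries: deviations of same-numbered libraries correlated between -0.155 and 0.035 across genes in 9 pairs. In 0 of 9 libraries was the own number the best match in both other groups. Within a single other group it could be, as for 7 d replicate 2 with Control replicate 2 (0.031). With the replicate block 74 genes were called at 7 d. For Stat3 the block gave 0.98, 0.21 and -0.76 in the 3 comparisons, and for Socs3 2.46, 1.02 and -1.44, with no call changed. The block left the 3 differences of the count ratio at 1.52, 0.89 and -0.63, with exact sign-flip p of 0.25, the smallest that 3 pairs can give. Depth limits Socs3, which had 11 to 145 counts in a library. The counts of pathway genes were not run, for want of symbols.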
